A study of Mus musculus with 2 samples.

Results

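Mir375 and the 3 genes of the miR-7 family, Mir7-1, Mir7-2 and Mir7b, are the subject here, in whole intestine of newborn mice. They were chosen by name: the 4 rows whose Ensembl identifiers carry these symbols in the mouse GENCODE annotation, of 1973 miRNA genes in each deposited table. All 4 had at least 10 counts in each library, as did 314 genes in all. MicroRNA sequencing was done on the intestines of 2 B6NCrl pups of postnatal day 0 that shared a mother, with 1 library per pup and an RNA size range below 30 in the labels. The gut segment is not named and the sex of the pups was not collected. No pup was treated and no second group exists, so the data give the level of each gene, the spread between the littermates, called pup 1 and pup 2, and the difference between their libraries.

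MicroRNAs are cut from hairpin transcripts into short strands, from the 5p or the 3p arm, that guide Argonaute proteins to messenger RNAs. Bases 2 to 8 of the strand, the seed, select the targets. In mice, miR-375 was found in pancreatic islet cells, where it restrains insulin secretion, and it is known from hormone-secreting and other cells of the gut epithelium. miR-7 is a conserved miRNA of islet, pituitary and neurosecretory cells of the brain, and enteroendocrine cells of the gut share many regulators with islet cells. The libraries hold RNA of whole tissue: which cells the counts came from was not measured, hormone transcripts are not part of the assay, and fewer cells of a type cannot be told apart from less RNA per cell.

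The sequences show which reads the tables can assign to each gene. They are from RefSeq on GRCm38.p6, in which all 4 genes matched by symbol, and are given 5′ to 3′ with the seed in capitals. The 5p strands of the miR-7 genes come first, followed by their 3p strands and the 5p strand of Mir375. The other strand of the Mir375 hairpin is miR-375-3p. RefSeq as used here lists no mature sequence for it, so its sequence and seed are not given.
miR-7a-5p, from Mir7-1 and Mir7-2: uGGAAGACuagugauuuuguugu
miR-7b-5p, from Mir7b: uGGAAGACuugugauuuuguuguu
miR-7a-1-3p, from Mir7-1: cAACAAAUcacagucugccaua
miR-7a-2-3p, from Mir7-2: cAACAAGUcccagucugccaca
miR-7b-3p, from Mir7b: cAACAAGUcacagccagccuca
miR-375-5p, from Mir375: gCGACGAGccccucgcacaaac

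The 5p strands of all 3 miR-7 genes have the seed GGAAGAC, which no other mature sequence of the 1679 names in the RefSeq table has. Counted from 1 at the 5′ end, miR-7b-5p differs from miR-7a-5p over the 23 bases compared by A10U alone, outside the seed. The 3p strands are less alike. miR-7a-2-3p differs from miR-7a-1-3p by A7G, A10C and U21C, and the first of these lies in the seed, so their seeds are AACAAGU and AACAAAU. The seed AACAAGU is shared by miR-7a-2-3p and miR-7b-3p. The seed of miR-375-5p, CGACGAG, occurs in no other mature sequence of the table.

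Mir7-1 and Mir7-2 share a stretch of 24 bases, printed here because it contains the whole of miR-7a-5p.
Shared by the Mir7-1 and Mir7-2 hairpins: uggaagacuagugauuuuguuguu
The tables assign a read that maps to more than 1 place to none of the genes. A read of miR-7a-5p itself matches both hairpins exactly, and a read can be placed on 1 of them only if it extends beyond this stretch or comes from elsewhere in the hairpin, such as the 3p strand. The counts of Mir7-1 and Mir7-2 therefore leave out such reads and do not give the level of miR-7a-5p. Multi-mapped reads were 30.3% of all reads in pup 1 and 29.8% in pup 2, and how many of them were miR-7a-5p is unknown.

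For exact matches, Mir7b and Mir375 lack that limit within the hairpins searched. Whether the alignment allowed mismatches is not known, and miR-7b-5p differs from miR-7a-5p by A10U alone over the bases compared. Of windows of 20 bases, 92 of 92 in the Mir7b hairpin and 45 of 45 in the Mir375 hairpin occurred in no other of 1005 hairpins on either strand, against 84 of 89 in Mir7-1 and 73 of 78 in Mir7-2. The longest run that Mir7b shares with Mir7-1 or Mir7-2 is 14 bases, and the longest that Mir375 shares with any of the 1001 hairpins outside the 4 genes is 9 bases. The numbers of windows found in no other place were the same in a search of the 141767 GENCODE transcripts. The rest of the genome was not searched. The hairpin of Mir375 is shown whole, with miR-375-5p in capitals, since its count can hold reads of either arm.
Mir375 hairpin: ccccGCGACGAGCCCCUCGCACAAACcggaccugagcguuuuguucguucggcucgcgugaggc

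**Figure D1:**
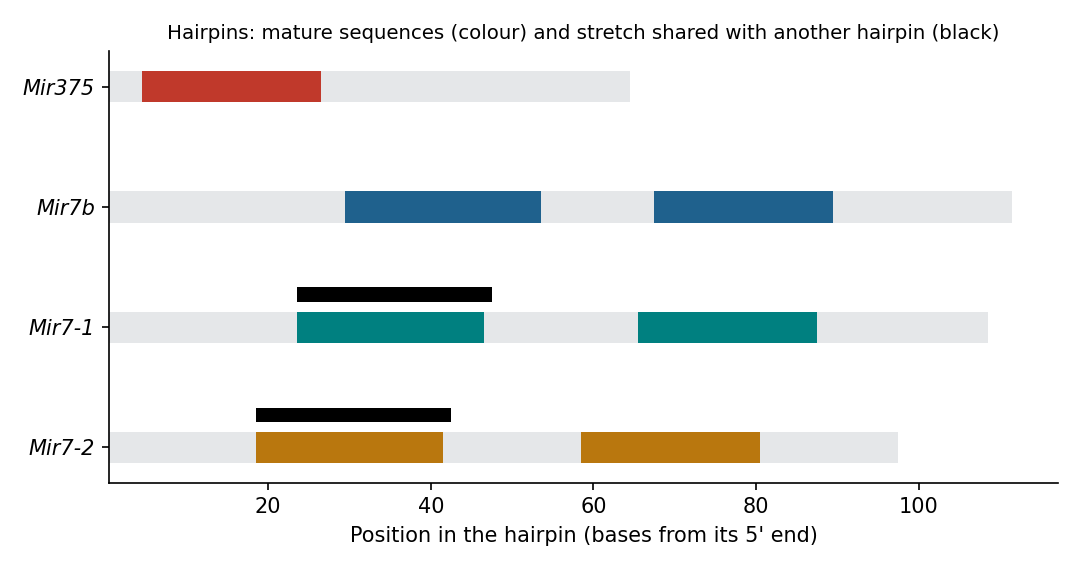
Map of the 4 hairpins, with position in bases from the 5′ end on the x axis and 1 gene per row. Colour marks the mature sequences listed in RefSeq (2 for each miR-7 gene, 1 for Mir375), grey the rest of the hairpin, and black the stretch whose windows of 20 bases occur in another hairpin; the black stretch covers all of miR-7a-5p in Mir7-1 and in Mir7-2 and is absent from Mir375 and Mir7b.

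The 4 genes lie on 4 chromosomes (GRCm38, GENCODE M21). Mir375 (ENSMUSG00000065616.2) is at chr1:74900658-74900721 on the minus strand, outside any annotated gene. Its neighbours are Cryba2, which encodes a crystallin and lies 7514 bases away, and Cfap65, which lies 1349 bases away on the other side. Mir7-1 (ENSMUSG00000065434.1) is at chr13:58392779-58392886 on the minus strand, within Hnrnpk, the gene of an abundant RNA-binding protein. It is intronic in all 12 annotated Hnrnpk transcripts that span it. Mir7-2 (ENSMUSG00000065609.1) is at chr7:78888277-78888373 on the plus strand and has no host gene. The nearest gene is Aen at 7480 bases. Mir7b (ENSMUSG00000065491.1) is at chr17:56242988-56243098 on the plus strand, also without a host, and the end of the long non-coding RNA gene AC026385.1 on the same strand lies 182 bases before it. No other annotated miRNA gene lies within 10 kb of any of the 4.

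Pup 2 was sequenced more deeply than pup 1. Pup 1 gave 6375694 reads, 3567658 of them on the annotated strand of miRNA genes, and pup 2 gave 8373497, with 4683939 there. Levels are in CPM, where 1000000 is the total on that strand over all miRNA genes. A read covers a mature strand and not a transcript, so no level was divided by gene length. Levels of different miRNAs still hold any difference in how well each sequence is captured, which the spread between pups does not show.

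Mir375 was the most abundant of the 4 and ranked 21st by mean CPM among the miRNA genes of the newborn gut. It had 40499 counts in pup 1 and 52598 in pup 2, or 11352 and 11229 CPM. The pups were thus within 1.02-fold of each other, and their 95% exact Poisson intervals, 11241 to 11463 CPM in pup 1 and 11134 to 11326 CPM in pup 2, overlapped. The mean was 11291 ± 86.5 CPM (SD, n = 2), with a coefficient of variation of 0.766%. In pup 1 it was 1.14% of all miRNA counts and ranked 18th, and in pup 2 it was 1.12% and ranked 21st. The genes ranked above it took 76.0% of all miRNA counts.

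Genes close to Mir375 in level were partly inseparable from it. The genes just above were Mir203, an epithelial miRNA, at 11510 ± 597 CPM and Mir194-2, of the gut epithelial miR-194 family, at 11483 ± 1483 CPM. Both distances from Mir375 were smaller than the SD of the neighbour, and Mir375 was the higher gene in pup 1 and the lower one in pup 2 in both cases. Mir130a, just below with 11078 ± 98.9 CPM, was under Mir375 in each pup, with 11148 CPM in pup 1 and 11008 in pup 2. Mir23a came next with 8956 ± 1062 CPM. The hairpin of Mir194-2 shares a run of 22 bases with that of Mir194-1, so its count may leave out reads that match both.

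Mir7b was the highest gene of the miR-7 family and ranked 106th. It had 1505 counts in pup 1 and 2435 in pup 2, or 422 and 520 CPM, with a mean of 471 ± 69.3 CPM (SD, n = 2). The exact Poisson intervals, 401 to 444 CPM in pup 1 and 499 to 541 CPM in pup 2, did not overlap, and pup 1 was the lower. Its neighbours in the order, Mir1983 (484 ± 79.7 CPM), Mir1193 (476 ± 42.3), Mir25 (464 ± 14.3) and Mir16-2 (461 ± 71.4), were all nearer to it than the SD of Mir7b.

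Mir7-1 ranked 155th, with 459 counts in pup 1 and 784 in pup 2. Its levels were 129 CPM in pup 1 and 167 CPM in pup 2, with a mean of 148 ± 27.4 CPM. The intervals, 117 to 141 CPM in pup 1 and 156 to 180 CPM in pup 2, stood apart, again with pup 1 the lower. Mir152 (152 ± 16.3 CPM) and Mir1981 (149 ± 31.4) above it and Mir574 (146 ± 10.5) and Mir676 (146 ± 12.6) below it were within its SD.

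Mir7-2 was the lowest of the 4, ranked 241st, with 63 counts in pup 1 and 109 in pup 2. That was 17.7 and 23.3 CPM, with intervals of 13.6 to 22.6 CPM in pup 1 and 19.1 to 28.1 CPM in pup 2, which overlapped. The mean was 20.5 ± 3.97 CPM. A library with no read of a gene still allows 3 counts, or 0.841 CPM in pup 1 and 0.640 CPM in pup 2, so Mir7-2 was well above that floor. Its neighbours Mir218-2 (21.3 ± 1.17 CPM), Mir122 (20.6 ± 11.7), Mir672 (20.2 ± 2.33) and Mir18b (19.2 ± 1.81) lay within its SD. All intervals cover counting error only. PCR copies of a molecule cannot be recognised in these libraries, so the intervals may be too narrow even for that. No read was counted on the opposite strand of any of the 4 genes in either pup.

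**Figure D2:**
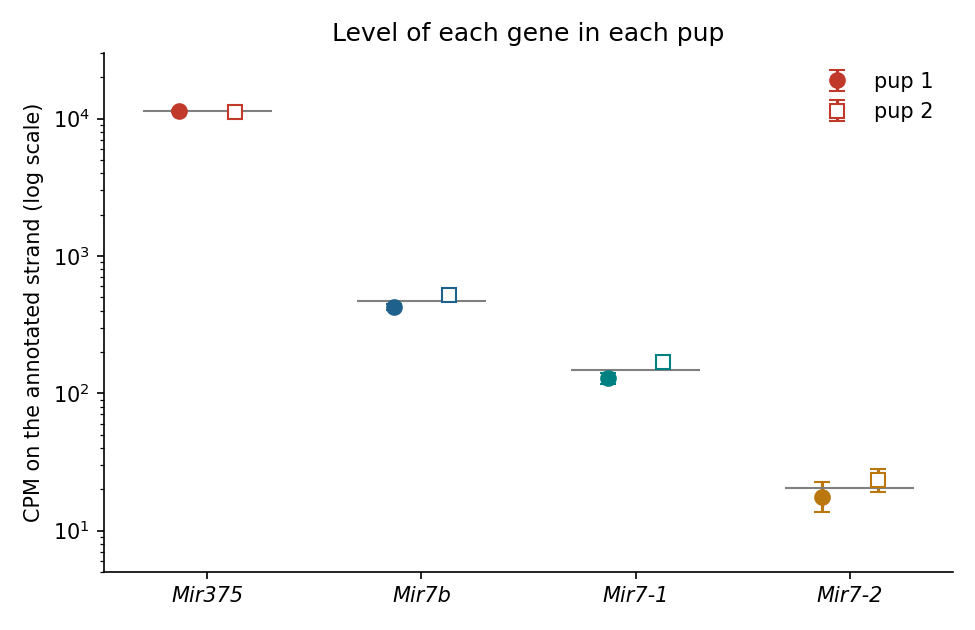
CPM on the annotated strand (y axis, log scale) for the 4 genes, with pup 1 as filled circles, pup 2 as open squares, bars for 95% exact Poisson intervals of each count and a grey line for the mean of 2 pups. Mir375 lies near 11291 CPM in both pups, and each miR-7 gene is lower in pup 1 than in pup 2.

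**Figure D3:**
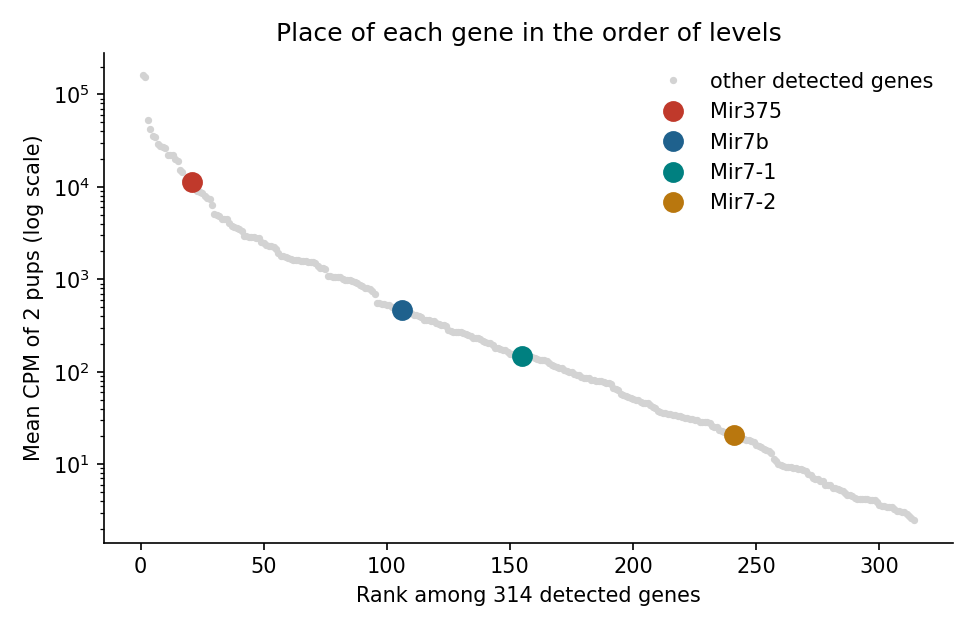
Mean CPM of 2 pups (y axis, log scale) against rank among the 314 detected genes (x axis), with the 4 genes coloured. Mir375 stands at rank 21, Mir7b at 106, Mir7-1 at 155 and Mir7-2 at 241.

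The order of the 4 genes was the same in both pups, and the distances between them were large against the spread. Mir375 was 26.9-fold above Mir7b in pup 1 (95% exact binomial interval 25.6 to 28.3) and 21.6-fold in pup 2 (20.7 to 22.5), a log2 ratio of 4.59 ± 0.22 (SD, n = 2). Mir7b was 3.28-fold above Mir7-1 in pup 1 and 3.11-fold in pup 2, a log2 ratio of 1.67 ± 0.06. Mir7-1 was 7.29-fold above Mir7-2 in pup 1 and 7.19-fold in pup 2, a log2 ratio of 2.86 ± 0.01. With 2 pups an exact sign-flip test cannot give a p below 0.5, so no test was made of these ratios. Reads of the shared stretch were lost from Mir7-1 and Mir7-2. The ratios of Mir7b to Mir7-1 and of Mir7-1 to Mir7-2 therefore describe counted reads and not the output of the genes.

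Within the miR-7 family the split of counted reads hardly moved. Mir7b held 74.2% of them in pup 1 (exact binomial interval 72.3 to 76.1) and 73.2% in pup 2 (71.6 to 74.7). Mir7-1 held 22.6% in pup 1 and 23.6% in pup 2, and Mir7-2 held 3.11% and 3.28%. The 3 genes summed to 568 CPM in pup 1 and 711 CPM in pup 2, or 639 ± 101 CPM. What moved was this sum against Mir375: Mir375 was 19.98-fold above it in pup 1 (19.1 to 20.9) and 15.8-fold in pup 2 (15.3 to 16.4). These intervals cover counting error only and do not overlap. The sum leaves out reads of the shared stretch, so the fold describes counted reads and not all miR-7. The ratio is taken within each library, so it does not depend on scaling between libraries.

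Between the libraries, 2 of the 3 miR-7 genes were called lower in pup 1, and Mir375 differed by a small amount whose sign changed with scaling. Each of the 314 genes was tested with a two-sided exact binomial test, in which TMM scaling set the share of counts due to pup 1. The p-values were adjusted over all 314 by Benjamini and Hochberg, and genes below 0.05 were called. The background was high: 129 of 314 genes, 41.1%, were called in either direction, and 67, 21.3%, were called lower in pup 1. Mir7b had a log2 ratio, pup 1 over pup 2, of -0.34 (95% interval -0.44 to -0.25, adjusted p = 1.43e-12). Mir7-1 had -0.42 (-0.59 to -0.25, adjusted p = 2.33e-06). Mir7-2 had a ratio of about the same size, -0.44, but its interval of -0.91 to 0.02 included 0 at its depth and it did not pass (adjusted p = 0.116). The 3 ratios were thus closer to each other than the width of their intervals, and they stayed below 0 under all scalings tried.

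Mir375 had a log2 ratio of -0.03 (-0.05 to -0.01, adjusted p = 0.0127 by the exact binomial test) and was called lower in pup 1, which its large count allows at a fold of 1.02. With total-count scaling the ratio was 0.02 (adjusted p = 0.201), and with a minimum of 1 count it was -0.02 (adjusted p = 0.260), so its direction and its call both changed with the settings. Of the 314 genes, 87.9% were further apart between the pups than Mir375, against 21.3% for Mir7b, 11.8% for Mir7-1 and 10.2% for Mir7-2.

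In all, 3 of the 4 genes were called, each lower in pup 1, beside 41.1% of all genes called and 21.3% called lower in pup 1. Mir375 was not called with total counts or with a minimum of 1 count, while Mir7b and Mir7-1 were. The median log2 ratio was -0.38 over the 4 genes and -0.0022 over all 314. Of calls over all genes, 48.1% were higher in pup 1 with TMM scaling, 58.3% with total counts and 35.4% with the upper quartile. These tests set the libraries of 2 animals against counting noise and hold no replicate of either animal.

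**Figure D4:**
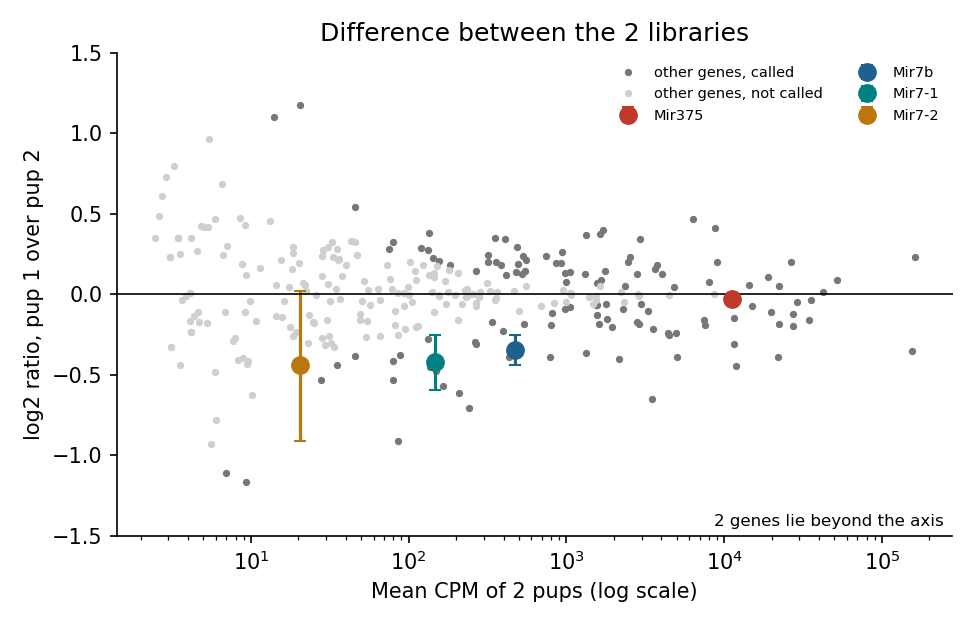
The log2 ratio of pup 1 over pup 2 (y axis) against mean CPM of 2 pups (x axis, log scale) for the detected genes, with called genes in dark grey, others in light grey, and the 4 genes coloured with 95% exact binomial intervals. Mir375 sits next to 0 and the 3 miR-7 genes sit together between -0.34 and -0.44; 2 other genes lie beyond the axis.

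Over 2 libraries, a pattern is no more than the ratio between the pups, and by that measure the genes of at least 100 CPM most like each of the 4 were as follows. Nearest to Mir375 were Mir374b (-0.03), Mir130a (-0.02) and Mir429 (-0.03), an epithelial miRNA of the miR-200 family. Nearest to Mir7b were Mir501 (-0.35), Mir215 (-0.35), an abundant gut epithelial miRNA, and Mir16-2 (-0.36). Nearest to Mir7-1 were Mir425 (-0.40), Mir30e (-0.45) and the neuronal miRNA Mir138-1 (-0.45). Mir30e and Mir138-1 were also nearest to Mir7-2, followed by Mir7-1 itself. Of the 174 genes of at least 100 CPM, 7 had a ratio below that of Mir7-1 and 17 below that of Mir7b, so the miR-7 ratios were toward one end but not alone there.

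MiRNAs of cell types in which these genes are also known, or which a gut sample could hold, were read beside them. The pancreas lies next to the gut and its islets are rich in miR-375 and miR-7, and islet cells have no separate list here. The acinar miRNAs Mir216a, Mir216b and Mir217, which mark the bulk of that organ, had 0, 0 and 2 counts in pup 1 and 1, 3 and 1 in pup 2. Their sum was 0.561 CPM in pup 1 and 1.07 CPM in pup 2, near the floor in both pups. Whether islet RNA had a part in the levels of Mir375 and miR-7 was not tested. The liver miRNA Mir122 had 28.9 CPM in pup 1 and 12.4 CPM in pup 2, a log2 ratio of 1.18 (adjusted p = 1.76e-06, exact binomial test), so it was higher in the pup in which Mir7b and Mir7-1 were lower. Its part in that result was not tested.

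The gut epithelium list, 10 genes, was far above Mir375 in sum, with 297838 CPM in pup 1 and 344959 in pup 2. Mir375 amounted to 3.81% of that sum in pup 1 and 3.26% in pup 2. The sum may leave out reads that match both Mir194-1 and Mir194-2, whose hairpins share a run of 22 bases. The highest genes of the list were Mir215 (154539 ± 23262 CPM), Mir429 (35301 ± 173) and Mir192 (28894 ± 94.0). Mir375 exceeded Mir141 (4988 ± 487) and Mir200a (2886 ± 200), which were named after their values were seen. All 10 were called lower in pup 1 with TMM scaling, beside 21.3% of all detected genes. Among the 174 genes of at least 100 CPM, a level that each of the 10 reached, 58 were called lower. With total counts 8 of the 10 were called lower, beside 16.9% of all detected genes, and 1 of the 10 had a positive ratio. The median log2 ratio of the list was -0.19, between that of Mir375 and those of the miR-7 genes. The gut epithelium genes were thus lower in the same pup as Mir7b and Mir7-1, and their part in that result was not tested.

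Other miRNAs described in endocrine or neurosecretory cells, 9 genes that were all detected, summed to 5917 CPM in pup 1 and 7654 CPM in pup 2, below Mir375 alone in each pup. The 3 highest were Mir182 (3482 ± 1025 CPM), Mir183 (1572 ± 18.4) and Mir96 (1337 ± 211), which form a cluster known from sensory cells. Of the 9, 4 were called lower in pup 1 and 1 higher, beside 21.3% of all detected genes called lower and 19.7% called higher. The 4 were Mir182 (log2 ratio -0.65), Mir96 (-0.37), Mir153 (-0.44) and Mir183 (-0.07). The gene called higher was Mir132, an activity-induced neuronal miRNA, with 0.15. With total counts 2 were called lower, Mir182 and Mir96, beside 16.9% of all genes. With the upper quartile, where 14.6% of all genes were called higher, Mir132 was not called. With TMM scaling the ratio was negative for 5 of the 9 genes and positive for 4, so the list did not move in 1 direction. The median log2 ratio over the 9 was -0.07, beside -0.0022 over all detected genes.

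Of 13 genes on the neuron list, 12 were analysed here, 6 were detected, and 1, Mir138-1, was called lower in pup 1 (137.6 ± 27.3 CPM, log2 ratio -0.45), beside 21.3% of all detected genes. The sum was 1304 CPM in pup 1 and 1309 CPM in pup 2. The highest gene, Mir137, had 1052 ± 26.3 CPM and a log2 ratio of 0.01, or -0.03 with upper-quartile scaling, and Mir138-2 followed Mir138-1 with 50.7 ± 0.0955 CPM. On the annotated strand, no count was found in either pup for Mir124a-1, Mir124a-2, Mir124a-3, Mir9-2 or Mir219a-2. On the opposite strand Mir219a-2 had 1 count in pup 1 and 3 in pup 2. Each shares a run of 22 to 33 bases with another hairpin, so, as for miR-7a-5p, a count of 0 need not mean that the mature miRNA was missing.

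**Figure D5:**
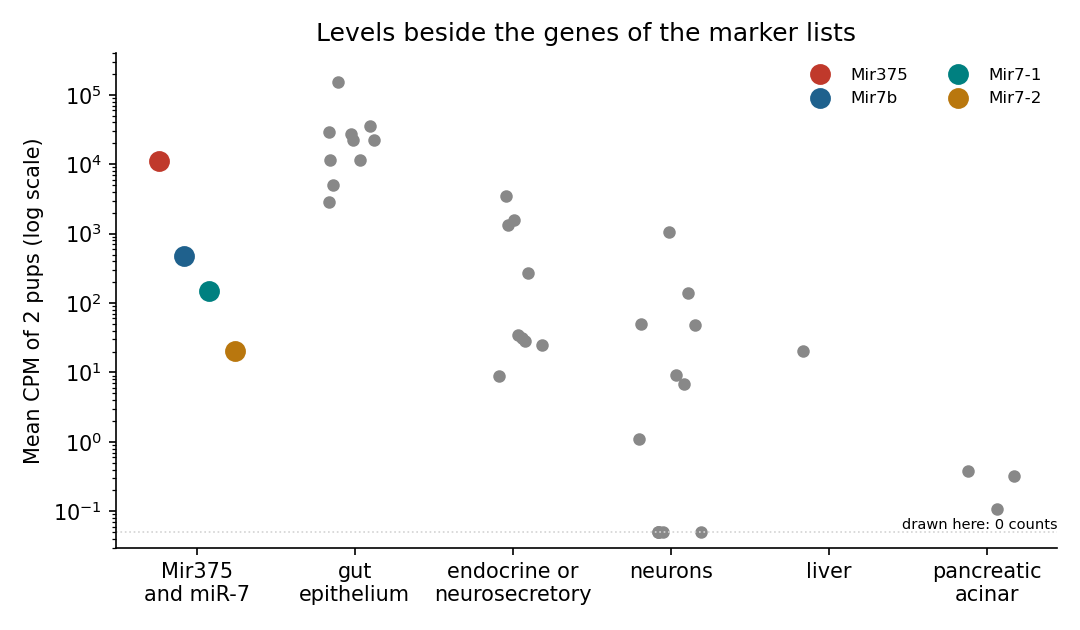
Mean CPM of 2 pups (y axis, log scale) of the 4 genes and, in grey, of each gene of 5 marker lists (x axis); genes with 0 counts on the annotated strand in both pups are drawn on the dotted line. Mir375 lies among the gut epithelium genes, the miR-7 genes lie in the range of the neuron and endocrine or neurosecretory lists, and the 3 pancreatic acinar genes lie below 1 CPM.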

How the data were processed

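Raw read counts per miRNA gene were deposited by the authors for each library, on mm10 with annotation M4 according to the authors' notes deposited with them; no aligner or counter is named in these notes or the labels. Each table has 3 count columns (either, annotated and opposite strand) and 4 totals of reads in no gene, which stayed out of library sizes. Unmapped reads were 9.75% of reads, multi-mapped reads 30.0%, and reads outside miRNA genes or on their opposite strand 4.27%. Identifiers were matched without version to GENCODE M21 on GRCm38; 1894 of 1973 matched. Counts on the annotated strand were used. TMM factors came from edgeR 4.0.16 and size factors from DESeq2 1.42.0 in R 4.3.3; exact binomial and Poisson statistics came from scipy 1.17.1. The binomial test was run on simulated Poisson counts with known changes. That simulation held no spread between animals, so it does not bear on the calls between the pups beyond counting noise. The pups were the 2 samples of 1 group, so p-values compare libraries.

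The genes, lists and tests were chosen with earlier results of these data known. Genes were named by rule: the 4 genes, their 2 neighbours above and below in mean CPM, the 3 of at least 100 CPM nearest in ratio, miRNA genes within 10 kb, and up to 3 highest genes of each list with those at 0. Outside this rule, Mir141, Mir200a, Mir153 and Mir132 were named after their values were seen, and Mir194-1 for the run it shares with Mir194-2. Mir9-1 of the neuron list was not analysed here.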

Additional observations from a re-analysis of the deposited data

How the results depend on the processing

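The alternatives were other scalings, count minimums, strands, denominators and window lengths, and each pup alone, which with 2 pups is no check of stability; the search of GENCODE transcripts was chosen after seeing the data. Mir375 changed most in its call: its log2 ratio, pup 1 over pup 2, became 0.016 with total counts and -0.017, not called, with a minimum of 1 count, and ranged from -0.07 to 0.02 over 7 settings. Mir7b ranged from -0.39 to -0.30 and Mir7-1 from -0.46 to -0.38, called in all 7 settings. Mir7-2 ranged from -0.48 to -0.40 over 6 settings, called in none (adjusted p from 0.0874 to 0.219), and was not among genes with a minimum of 100 counts. With all reads as the denominator, which by construction lowers every level, Mir375 stood at 6317, Mir7b at 263, Mir7-1 at 82.8 and Mir7-2 at 11.4 counts per 1000000 reads. Counting either strand put Mir375 at 10910 CPM, since its own count is the same and the denominator then holds opposite-strand reads. Depth limits Mir7-2, and reads of several places limit Mir7-1 and Mir7-2. With 1 group no comparison between conditions was possible.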
